A study of Mus musculus with 10 samples.

Results

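The genes described are 8 that encode enzymes or enzyme subunits of the citric acid cycle (Cs, Idh2, Idh3a, Idh3b, Ogdh, Suclg1, Fh1 and Mdh2) together with Pcx, the gene of pyruvate carboxylase. Their probe sets were taken by gene symbol without a measured value, but the genes were chosen with earlier results of these data known. The array carried 23 probe sets annotated to them, of which 4 are array control probe sets placed along the Pcx transcript, and they make up 9 of the 18193 genes with a probe set. RNA came from adipocytes of 3T3-L1, an established mouse line of fibroblast-like cells that differentiate into fat cells in culture, and was hybridised to 10 Affymetrix arrays. Control cultures received LA, an abbreviation not spelled out in the labels but commonly used for linoleic acid, and treated cultures received c9t11 CLA, a conjugated isomer of it. LA was measured on 4 arrays at 8 h and 4 arrays at 12 h, numbered biological replicates 1 to 4 at each time, and CLA on 1 array at 8 h and 1 array at 12 h, both numbered replicate 1. No CLA value therefore has a replicate of its own, and the labels do not say whether replicates were separate cultures, so the p-values measure only the spread between these arrays, which may be technical. In the fits by time that spread comes from the LA arrays alone, and in the fit over both times the 2 CLA arrays enter it too. All samples were of 1 cell line, and no group without added fatty acid was analysed here.

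The citric acid cycle runs in the mitochondrial matrix, where it oxidises the acetyl group of acetyl-CoA to carbon dioxide and passes the electrons to the respiratory chain. In fat cells the cycle also has a synthetic use. Citrate leaves the mitochondrion and is split in the cytosol to acetyl-CoA for fatty acid synthesis, and pyruvate carboxylase refills the cycle by turning pyruvate into oxaloacetate. Pyruvate carboxylase is known to be strongly induced when 3T3-L1 cells become adipocytes.

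The promoter windows of 5 starts are shown because their genes mark the patterns described below. Cs and Suclg1 lay lowest in LA replicate 2, Idh2 lay highest there on quantile normalized values, and Pcx has 2 annotated starts. Each window runs from 250 bases before to 50 bases after a RefSeq transcription start on GRCm38.p6 and is printed 5′ to 3′ on the strand of the gene. Capitals mark matches, on either strand, to the GC box GGGCGG, the CCAAT box CCAAT, the E-box CACGTG and the cyclic AMP response element TGACGTCA.
Cs, chr10:128337477-128337776, plus strand: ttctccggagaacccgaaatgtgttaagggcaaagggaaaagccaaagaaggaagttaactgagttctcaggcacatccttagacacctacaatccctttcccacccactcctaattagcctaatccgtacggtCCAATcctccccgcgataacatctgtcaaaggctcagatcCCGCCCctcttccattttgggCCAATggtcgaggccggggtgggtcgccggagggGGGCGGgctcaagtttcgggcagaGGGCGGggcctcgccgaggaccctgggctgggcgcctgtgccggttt
Suclg1, chr6:73248255-73248554, plus strand: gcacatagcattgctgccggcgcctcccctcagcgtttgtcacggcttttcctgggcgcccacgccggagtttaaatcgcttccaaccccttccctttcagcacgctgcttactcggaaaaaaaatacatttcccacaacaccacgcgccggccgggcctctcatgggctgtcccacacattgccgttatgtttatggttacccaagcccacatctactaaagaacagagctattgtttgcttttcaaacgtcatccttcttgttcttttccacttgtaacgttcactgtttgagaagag
Idh2, chr7:80115301-80115600, minus strand: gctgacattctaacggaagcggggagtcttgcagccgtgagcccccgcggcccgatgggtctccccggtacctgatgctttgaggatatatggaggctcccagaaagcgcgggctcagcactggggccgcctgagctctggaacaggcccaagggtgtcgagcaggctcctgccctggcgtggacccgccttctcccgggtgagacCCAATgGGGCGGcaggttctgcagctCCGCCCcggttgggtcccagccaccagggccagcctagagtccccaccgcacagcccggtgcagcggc
Pcx upstream start, chr19:4510222-4510521, plus strand: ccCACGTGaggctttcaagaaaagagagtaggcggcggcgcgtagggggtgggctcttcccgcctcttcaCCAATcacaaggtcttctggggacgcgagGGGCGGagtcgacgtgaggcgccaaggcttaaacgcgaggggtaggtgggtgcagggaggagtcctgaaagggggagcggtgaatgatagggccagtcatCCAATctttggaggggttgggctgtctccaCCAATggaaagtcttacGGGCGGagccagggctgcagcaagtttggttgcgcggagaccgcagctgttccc
Pcx downstream start, chr19:4594069-4594368, plus strand: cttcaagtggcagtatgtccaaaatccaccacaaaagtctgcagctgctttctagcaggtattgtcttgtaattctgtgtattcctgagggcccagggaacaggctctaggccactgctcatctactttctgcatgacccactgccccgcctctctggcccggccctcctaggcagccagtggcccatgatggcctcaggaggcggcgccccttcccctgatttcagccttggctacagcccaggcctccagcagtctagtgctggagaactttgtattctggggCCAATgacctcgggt

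RefSeq windows were given for 8 of the 9 genes, 14 in all, among 32851 windows of the same length. The Cs window holds 3 GC boxes and 2 CCAAT boxes, and the Idh2 window 2 GC boxes and 1 CCAAT box. The upstream Pcx window holds 1 E-box, 2 GC boxes and 3 CCAAT boxes, whereas the downstream one holds 1 CCAAT box near its end. The Suclg1 window holds none of these letters. A GC box was present in 9 of the 14 windows, from 6 genes (35.7% of all windows hold one). A CCAAT box was in 12 windows, from 6 genes (37.4%). The E-box was found in 4 windows, of Ogdh and Pcx (7.15% of all windows). The cyclic AMP response element was in 4, of Ogdh and Mdh2 (1.79%). Ogdh has 6 of the windows, some of which overlap, so the same site can be counted more than once. The half-site of estrogen-related receptors, TNAAGGTCA (1.28%) and an ETS motif, CCGGAAGT (3.89%), matched none of the 14 windows on either strand. None of the 6 motifs contains another. These matches describe letters in the windows and are not evidence of binding.

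Levels are given as log2 normalized intensity, in which a difference of 1 is a doubling. Arrays were quantile normalized and raised to a floor at log2 3.84, and the brightest probe set by mean stands for each gene. All 9 genes passed the filter that left out the lowest 40% of genes, so 10916 genes were tested, and none of the 9 brightest probe sets touched the floor on any array. The arrays differed most by replicate number. The 4 replicate 1 arrays, which include both CLA arrays, were dimmer (75th percentile of intensity 26.4 to 39.5 against 54.4 to 76.8), and the first principal component, with 65.3% of the variance, set them at -76.0 to -40.9 and the other arrays at 24.7 to 73.6. One LA array also stood apart in RNA quality. The ratio of the 3′ to the 5′ control probe set of Actb was 5.67 in LA 12 h replicate 4 and 1.45 to 2.60 on the other 9 arrays, and that of Gapdh was 1.42 there and 0.81 to 0.92 elsewhere. The 5 mature adipocyte markers on the array (Adipoq, Fabp4, Cidec, Lpl, Retn) had a summed normalized intensity of 27315 to 36268 over all arrays. The brightest genes dominate this sum, and Cidec alone ran from log2 9.62 in LA 12 h replicate 4 to 12.46 in replicate 1. Brown adipocyte Ucp1, macrophage Ptprc and Lyz2, muscle Myl1 and progenitor Cd34 were at the floor on all 10 arrays. Other genes of these lists were not. Cidea of brown adipocytes reached 6.29, the macrophage genes Csf1r and Adgre1 8.23 and 7.02, and the muscle gene Ckm 4.83. Among preadipocyte and fibroblast genes Pdgfra reached 10.96 and Postn 11.78. Fewer cells of a type and less RNA per cell cannot be told apart in such bulk RNA.

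**Figure D1:**
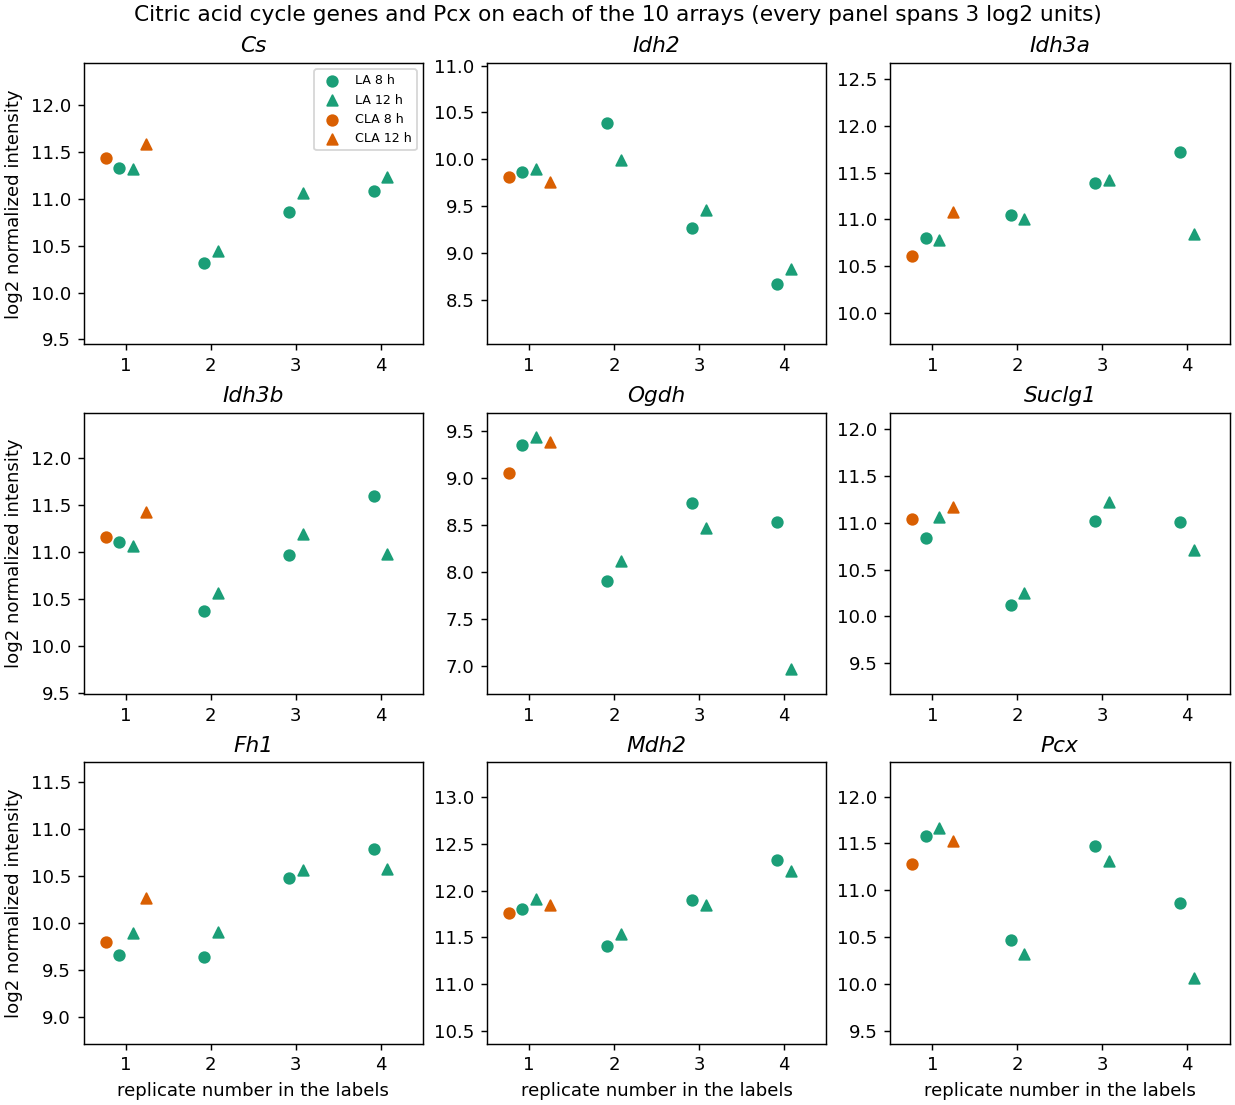
Log2 normalized intensity (vertical axis) of the 9 genes on each of the 10 arrays, by the replicate number in the labels (horizontal axis); each point is 1 array, circles are 8 h, triangles 12 h, green LA and orange CLA, and every panel spans 3 log2 units. The CLA arrays lie beside the LA arrays of replicate 1, and for Cs, Idh3b, Suclg1 and Mdh2 replicate 2 is the lowest LA point at both times.

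Cs encodes citrate synthase, which joins acetyl-CoA to oxaloacetate and so opens the cycle. In LA at 8 h it was at 11.33, 10.31, 10.86 and 11.08 in replicates 1 to 4, a mean of 10.90 ± 0.43 (SD, n = 4), and at 12 h at 11.32, 10.44, 11.06 and 11.23, a mean of 11.01 ± 0.40 (SD, n = 4). The CLA arrays were at 11.43 and 11.58. Both CLA values lay above all 4 LA arrays of their time, and Cs was the only one of the 9 genes for which this held at both times. Among all genes tested this was so for 798, or 7.31%. The lead over the nearest LA array, that of replicate 1, was 0.10 at 8 h and 0.26 at 12 h. On median-centred values Idh3b and Suclg1 joined Cs in lying above every LA array at both times, and on the deposited scaling Cs alone did so. In limma's additive fit of treatment and time Cs was 0.55 higher in CLA (SE 0.29, adjusted p = 0.457), and with the replicate number as a block 0.18 higher (SE 0.16, adjusted p = 1). The other 2 Cs probe sets, 1422577_at and 1422578_at, differed by 0.68 (SE 0.46) and 0.59 (SE 0.31), in the same direction. In the authors' deposited table, which pools both times, the Cs ratio was 1.498 with a p of 0.0167. No other gene of the 9 had a p under 0.05 in the authors' deposited table for its brightest probe set, where 26.5% of the tested genes did.

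Pcx encodes the enzyme that supplies oxaloacetate from pyruvate. In LA at 8 h it was at 11.58, 10.47, 11.47 and 10.86 in replicates 1 to 4, and at 12 h at 11.67, 10.32, 11.31 and 10.06. The CLA arrays were at 11.29 and 11.53. Replicates 1 and 3 lay about a log2 unit above replicate 2 at each time, and both CLA values fell inside the LA range. The difference CLA minus LA was 0.44 (SE 0.42, adjusted p = 0.562 by limma) and became -0.22 (SE 0.24) with the replicate block, because both CLA arrays lay below the LA array of replicate 1, by -0.29 at 8 h and -0.14 at 12 h. No direction can therefore be given for Pcx.

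The 4 control probe sets along the Pcx transcript have different probes, so only the change of their difference between arrays is read here. The 3′ minus the 5′ set, in log2 normalized intensity, was 2.84 to 4.86 on 9 arrays and at least 6.15 in LA 12 h replicate 4, where the 5′ set was at the floor. On that array the deposited intensity was 1089 for the 3′ set, 92.8 for middle set B, 22.8 for middle set A and 8.15 for the 5′ set. LA 8 h replicate 4 had the next largest difference, 4.86. The middle and 5′ sets of both replicate 4 arrays thus lay below those of every other array of their time, whereas at 8 h the brightest Pcx probe set of replicate 4 (10.86) lay above that of replicate 2 (10.47). The 4 sets also differed in their estimates for CLA. The 5′, middle A and middle B sets gave 1.25 (SE 1.02), 1.44 (SE 1.12) and 1.12 (SE 0.89) for CLA minus LA, against 0.45 (SE 0.43) for the 3′ set, and none passed limma's test among 20975 probe sets fitted on their own (adjusted p = 0.524 to 0.583). The part of RNA quality in these values was not tested.

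**Figure D2:**
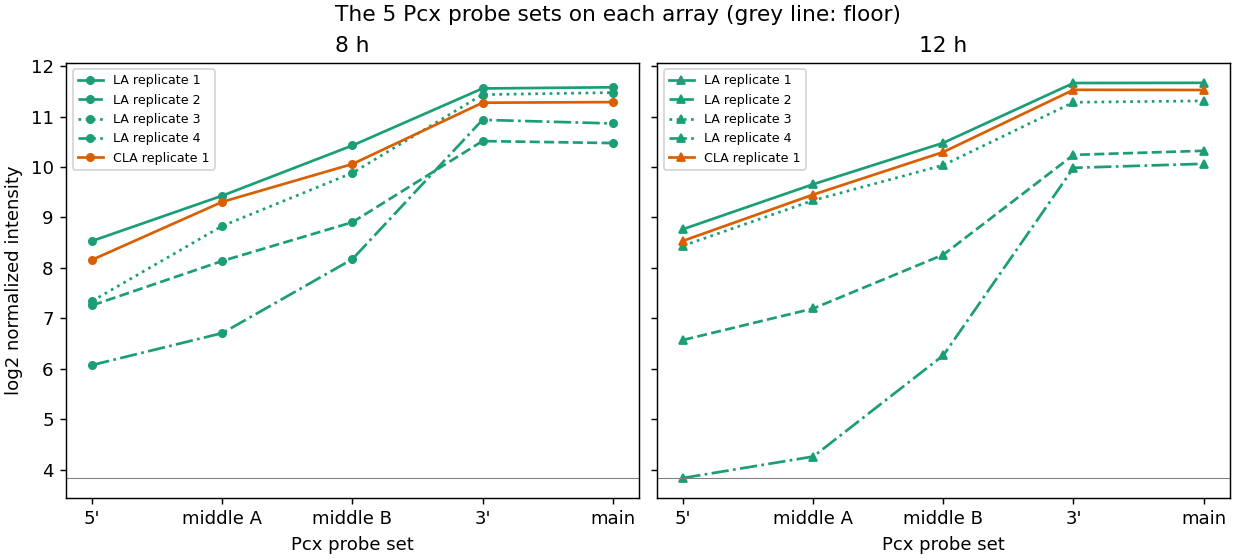
Log2 normalized intensity (vertical axis) of the 4 Pcx control probe sets, in order from the 5′ to the 3′ end, and of the brightest Pcx probe set (main) on each array, with 8 h at the left and 12 h at the right; each line is 1 array, orange is CLA, green with a line style per replicate number is LA, and the grey line is the floor at 3.84. At 12 h replicate 4 is the lowest line at every control set and reaches the floor at the 5′ set, whereas replicate 1 and both CLA lines run close together.

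Isocitrate dehydrogenase exists in the matrix as the NAD-dependent complex of the cycle, for which Idh3a encodes the catalytic subunit and Idh3b a further subunit, and as the separate NADP-dependent enzyme Idh2. Idh3a was at 10.80, 11.05, 11.39 and 11.72 in LA at 8 h and at 10.78, 11.002, 11.42 and 10.85 at 12 h, with CLA at 10.61 and 11.08. The 8 h CLA value lay below all 4 LA arrays of its time and the 12 h value inside the LA range. How many of all genes had a CLA value outside the LA range at 1 time was not counted. The difference over both times was -0.28 (SE 0.28, adjusted p = 0.577 by limma) and 0.05 (SE 0.28) with the block. The Idh3a probe sets did not follow 1 order. The 2 dimmer sets 1422500_at and 1422501_s_at had their highest LA mean in replicate 1 (7.01 and 7.89), where the brightest set had its lowest (10.79), and set 1447701_x_at was at the floor on all 10 arrays. For CLA minus LA those 2 dimmer sets gave 0.07 (SE 0.34) and 0.17 (SE 0.29), against -0.28 for the brightest.

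Idh3b was at 11.11, 10.37, 10.97 and 11.60 in LA at 8 h and at 11.06, 10.56, 11.20 and 10.98 at 12 h, with CLA at 11.16 and 11.42. Replicate 2 was the lowest LA array at both times. The 12 h CLA value lay above all 4 LA arrays, a position at 1 time that was not counted over all genes. The difference was 0.31 (SE 0.29, adjusted p = 0.555 by limma) and 0.21 (SE 0.23) with the block. A second bright set, 1418885_a_at, gave 0.19 (SE 0.31). The suffix of the brightest set, 1418886_s_at, is one Affymetrix gave to probe sets whose probes can match transcripts of more than one gene.

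Idh2 was the only one of the 9 genes with its highest LA mean in replicate 2, though not on median-centred values. The other 8 did not share 1 order. Idh2 was at 9.87, 10.39, 9.27 and 8.67 in LA at 8 h and at 9.89, 9.995, 9.46 and 8.83 at 12 h, with CLA at 9.81 and 9.76. Replicate 2 was the highest and replicate 4 the lowest at both times, and both CLA values lay within the LA range, just under the LA array of replicate 1. The difference was 0.24 (SE 0.41, adjusted p = 0.737 by limma) and -0.10 (SE 0.18) with the block. The second Idh2 set, 1453601_at, was dim, at the floor on 3 arrays and never above 5.84, with its highest LA mean in replicate 1 (5.29). It gave 1.25 (SE 0.51, adjusted p = 0.463 by limma among 20975 probe sets).

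Ogdh encodes the decarboxylating subunit of the 2-oxoglutarate dehydrogenase complex. It was at 9.36, 7.90, 8.74 and 8.53 in LA at 8 h and at 9.44, 8.12, 8.47 and 6.96 at 12 h, with CLA at 9.06 and 9.38. The LA array of replicate 1 was the highest at both times, with CLA below it by -0.30 and -0.05, and LA 12 h replicate 4, the array with the largest Pcx 3′ minus 5′ difference, was the lowest. Ogdh had the largest difference of the 9 genes, 0.78 (SE 0.53, adjusted p = 0.471 by limma), which became -0.18 (SE 0.40) with the block. In the authors' deposited table its ratio was 1.72 with a p of 0.0805. Its other probe set, 1445632_at, was at the floor on 9 arrays.

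Suclg1 encodes the alpha subunit shared by the 2 forms of succinyl-CoA ligase, which make ATP or GTP while releasing succinate. It was at 10.84, 10.12, 11.01 and 11.01 in LA at 8 h and at 11.06, 10.24, 11.22 and 10.70 at 12 h, with CLA at 11.04 and 11.16. Replicate 2 lay below the other LA arrays at both times. CLA at 8 h lay just above all 4 LA arrays, again a position at 1 time not counted over all genes. The difference was 0.32 (SE 0.30, adjusted p = 0.554 by limma) and 0.15 (SE 0.18) with the block.

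Fh1 encodes fumarase, which hydrates fumarate to malate, and Mdh2 the mitochondrial malate dehydrogenase, which closes the cycle by remaking oxaloacetate. Fh1 was at 9.66, 9.64, 10.48 and 10.79 in LA at 8 h and at 9.90, 9.91, 10.57 and 10.57 at 12 h, with CLA at 9.80 and 10.27. Replicates 1 and 2 lay below replicates 3 and 4 at both times without overlap. Both CLA values lay above the LA array of replicate 1, by 0.13 and 0.37, and inside the LA range. The difference was -0.16 (SE 0.34, adjusted p = 0.788 by limma) and turned to 0.25 (SE 0.19) with the block. Mdh2 was at 11.80, 11.41, 11.90 and 12.32 in LA at 8 h and at 11.91, 11.53, 11.84 and 12.20 at 12 h, with CLA at 11.76 and 11.84. Replicate 2 was the lowest and replicate 4 the highest LA array at both times, and CLA lay among the others. The difference was -0.07 (SE 0.25, adjusted p = 0.882 by limma), with 95% limits of -0.62 and 0.49, and -0.06 (SE 0.17) with the block. The second Mdh2 set gave 0.02 (SE 0.27).

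Over both times 0 of the 9 genes passed limma's test between CLA and LA, and neither did any other gene (0% of 10916), with the lowest adjusted p at 0.305. At an unadjusted p under 0.05 there were 996 genes, or 495 with the replicate block, and 0 of the 9 among them in either fit. The median difference of the 9 genes was 0.31 against 0.15 for all genes tested, and 6 of 9 lay above 0. The scaling moved the median of all genes, to 0.23 on median-centred values and to -0.22 on the deposited scaling, where the median of the 9 genes was 0.78 and 0.34. With the replicate block 5 of 9 lay above 0, at a median of 0.05 against 0.00 for all genes, and Idh2, Ogdh and Pcx turned from above to below 0 while Idh3a and Fh1 turned the other way. Against the LA array of replicate 1 alone, CLA was higher for 4 of 9 genes at 8 h and 5 of 9 at 12 h. On the deposited scaling these counts were 9 and 5.

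**Figure D3:**
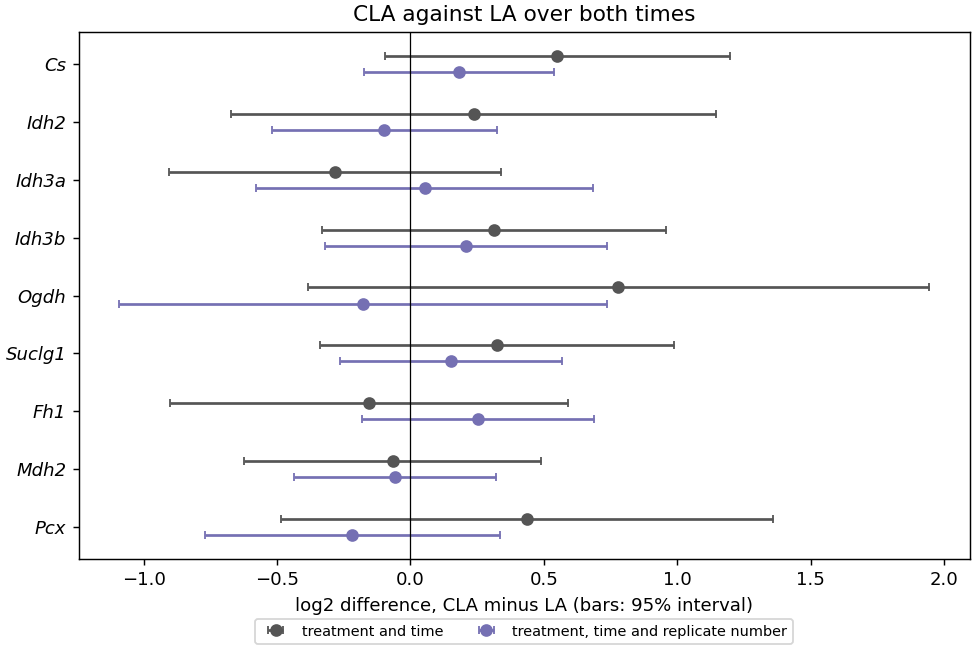
Log2 difference CLA minus LA over both times (horizontal axis) for each of the 9 genes (vertical axis), with points for limma's estimate and bars for its 95% interval; grey is the fit of treatment and time, violet the fit that adds the replicate number. Every interval spans 0 in both fits, and the estimates for Ogdh and Pcx move from 0.78 and 0.44 to -0.18 and -0.22.

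By time, the CLA comparison rests on 1 CLA array, and its spread is taken from the LA arrays. At 8 h 0 of 9 genes passed limma's test (0% of all genes tested, 487 at an unadjusted p under 0.05), with a median of 0.19 for the 9 and 0.16 for all genes. The replicate block gave 648 genes at an unadjusted p under 0.05 and a median of -0.07 for the 9 at 8 h. At 12 h 0 of 9 passed (0% of all genes, 187 at an unadjusted p under 0.05), 8 of 9 lay above 0, and the median was 0.35 against 0.09 for all genes. With the block 635 genes had an unadjusted p under 0.05 at 12 h and the median of the 9 was 0.18. The values at 12 h ran from -0.03 for Mdh2 to 1.14 (SE 0.79) for Ogdh. The test of whether the CLA difference itself changed between the times passed for 0 of 9 genes (0% of all genes). Genes with an unadjusted p under 0.05 numbered 116 without the block and 728 with it. The estimate was above 0 for 8 of 9 genes, from 0.03 for Cs to 0.71 (SE 1.12) for Ogdh, with Idh2 at -0.05. Median centring and the deposited scaling put 5 of 9 above 0.

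LA was also compared with itself over time. At 12 h against 8 h 0 of 9 genes passed limma's test (0% of all genes tested), and 26 genes had an unadjusted p under 0.05, or 457 with the replicate block. The differences ran from -0.39 (SE 0.50) for Ogdh to 0.12 (SE 0.28) for Cs, and the median was 0.00 against -0.01 for all genes. Within replicate numbers 1 to 3 the change from 8 h to 12 h stayed between -0.39 and 0.26 for every one of the 9 genes. In replicate 4 it was -1.57 for Ogdh, -0.87 for Idh3a, -0.80 for Pcx and -0.62 for Idh3b, whereas Cs was at 0.15 and Idh2 at 0.16. LA 8 h replicate 4 was itself the highest LA array of its time for Idh3a and Idh3b. Without LA 12 h replicate 4 the estimates were 0.04 for Ogdh, -0.17 for Idh3a and 0.00 for Pcx, from -0.39, -0.23 and -0.26, while Idh3b was at -0.07, from -0.06. LA 12 h replicate 4 is the array with the high Actb 3′ to 5′ ratio and Pcx difference, and the part of RNA quality in the change was not tested.

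LA arrays of different replicate numbers differed in several of the 9 genes. In limma's F test over the 4 numbers, with time removed, 6 of the 9 genes passed, beside 50.1% of all genes tested (5472 genes), so the share among the 9, 66.7%, is read against a high background. The mean over both times spanned 1.44 for Idh2 (adjusted p = 0.00709), 0.91 for Fh1 (0.0127), 0.95 for Cs (0.0135), 1.23 for Pcx (0.0138), 0.94 for Suclg1 (0.0266) and 0.79 for Mdh2 (0.0426). A span of 1.44 is a 2.72-fold difference between arrays of samples given the same fatty acid. Ogdh had the widest span, 1.65, but its arrays of 1 number differed too, and it did not pass (adjusted p = 0.0558), nor did Idh3b (0.82, 0.0944) or Idh3a (0.62, 0.232). The median span of the 9 genes, 0.94, was below the 1.08 of all genes tested. The calls depend on single arrays, among all genes as among the 9, and on the scaling. Without LA replicate 1 of 8 h or of 12 h 0 of 9 genes passed, without replicate 2 of either time 1 passed, and without replicate 4 of either time all 9 passed. With both arrays of replicate 1 left out 0 passed, and with both of replicate 2 left out 2 did. On the deposited scaling Idh2 and Fh1 passed, while 4971 of all genes did. With no filter on dim genes only Cs of the 9 passed, beside 2063 of all genes.

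**Figure D4:**
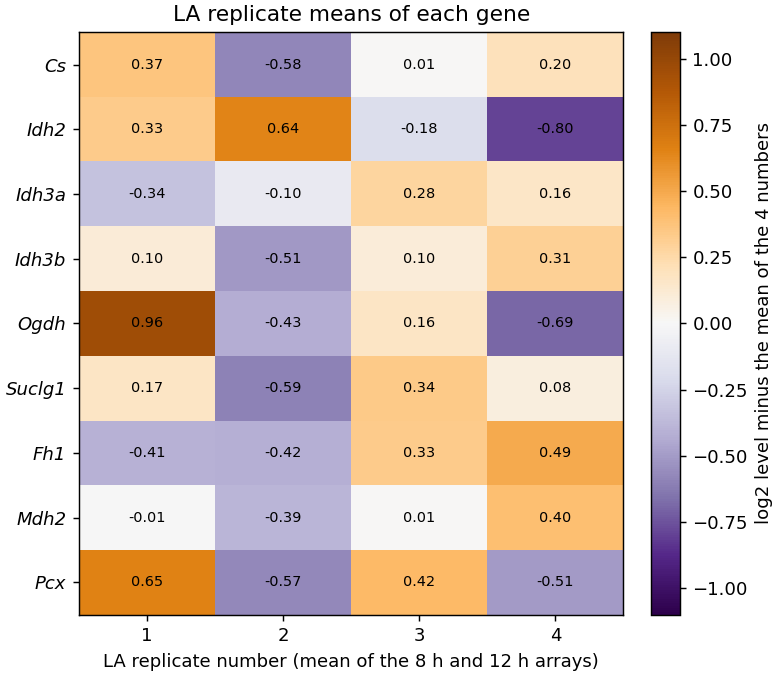
Mean of the 8 h and 12 h LA arrays of each replicate number (columns, 1 to 4), shown for the 9 genes (rows) as the log2 difference from the mean of the 4 numbers, with the colour scale and the printed value in each cell. Replicate 2 is below the mean for 8 genes and at 0.64 for Idh2, and Cs, Ogdh and Pcx lie highest in replicate 1.

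Replicate 2 held the lowest mean for 6 of 9 genes (Cs, Idh3b, Suclg1, Fh1, Mdh2 and Pcx), as it did for 20.9% of all genes tested. The margin was small for Fh1 (9.77 against 9.78 in replicate 1) and Pcx (10.40 against 10.46 in replicate 4). For the other genes named, replicate 2 also stood out by time. For Cs, Idh3b, Suclg1 and Mdh2 it was the lowest LA array at both times, which held for 10.3% of all genes tested. In the Cs set 1422577_at, however, LA replicate 4 lay lower at 12 h, at 8.83 against 8.91 in replicate 2. Idh2 did the reverse, with its highest mean in replicate 2, 10.19, and its lowest in replicate 4, 8.75. On median-centred values Idh2 lay highest in replicate 1, at 10.07 against 9.83 in replicate 2. Median centring put the lowest mean in replicate 2 for 7 genes and the deposited scaling for 5. Marker levels moved with the same number. The summed normalized intensity of the 6 preadipocyte and fibroblast markers on the array ran from 2115 in replicate 1 to 12174 in replicate 2 at 8 h and from 3804 to 11924 at 12 h, against 1482 and 3871 in CLA. The mature adipocyte sum was lowest in replicate 2 at both times, 27315 and 28412. The part of these cells or cell states in the levels of the 9 genes was not tested.

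Across the 10 arrays the 9 genes did not form 1 pattern. Pearson's r with the mean of the other 8 was 0.87 for Suclg1, 0.82 for Pcx, 0.77 for Idh3b, 0.65 for both Cs and Ogdh, 0.28 for Mdh2, 0.06 for Fh1, 0.05 for Idh3a and -0.40 for Idh2. The mean profile of the 9, each set to its own mean, was lowest in LA replicate 2 (-0.40 at 8 h and -0.35 at 12 h) and in LA 12 h replicate 4 (-0.32), and highest in CLA at 12 h (0.31). The tested genes whose levels followed this mean most closely were Lpin1 (r = 0.98), Acad8 (0.97), Lss (0.97), Cpt2 (0.97) and Abhd1 (0.96). For Pcx alone they were Pex16 (0.99), Esrra (0.99) and Vegfb (0.98). These correlations describe 10 arrays that share replicate numbers and are picked from 10916 genes.

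Of the other cycle genes, 9 of 10 were tested, and 0 passed between CLA and LA, with a median of 0.25, or 0.09 with the replicate block. Idh3g, another subunit of the NAD-dependent isocitrate dehydrogenase, was at 0.59 (SE 0.36) and Sdhc, a membrane anchor of succinate dehydrogenase, at 0.47 (SE 0.31). Dld, the dihydrolipoamide dehydrogenase shared by the 2-oxo acid dehydrogenase complexes, was at -1.23 (SE 0.53) and Sucla2, the ATP-forming beta subunit that pairs with Suclg1, at -1.04 (SE 0.54). With the block Idh3g and Sdhc were at 0.04 and 0.09, and Dld and Sucla2 at -0.11 (SE 0.26) and 0.01 (SE 0.34). Both were low in all replicate 1 arrays, Sucla2 with LA means of 8.34, 9.21, 9.87 and 10.16 in replicates 1 to 4. Suclg1, its partner, had LA means of 10.95, 10.18, 11.12 and 10.86, so the 2 subunits of 1 enzyme did not share an order. Over LA replicate numbers 4 of the 9 passed, beside 50.1% of all genes tested, Sucla2 with a span of 1.81, Dld with 1.77, Dlst with 0.93 and Sdhc with 0.78, and the narrowest spans were 0.34 for Sdha and 0.16 for Suclg2.

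Genes of pyruvate entry cover the pyruvate carrier, the pyruvate dehydrogenase complex and its kinases and phosphatases. Of 12, 11 were tested and 0 passed between CLA and LA, with a median of 0.38, or 0.25 with the replicate block. Pdk2, a kinase that switches the complex off, was at 1.95 (SE 0.997) without the replicate block and -0.11 (SE 0.40) with it, and Pdp2, a phosphatase that switches it on, was at 0.85 (SE 0.46). The lowest were Pdp1, the other phosphatase, at -1.09 (SE 0.80), and Pdha1, a catalytic subunit, at -0.25 (SE 0.30), and with the block both turned sign, to 0.61 and 0.25. Over LA replicate numbers 7 of 11 passed, beside 50.1% of all genes, and Pdk2 had the widest span, 3.58, from 4.26 in replicate 2 to 7.83 in replicate 1. Pdp1 spanned 2.76, with its highest mean in replicate 2 (6.91) and its lowest in replicate 1 (4.15), opposite to Pdk2. The low ends of both spans lie near the floor of 3.84, and Pdp1 was at the floor in CLA at 8 h. The floor may therefore limit both spans and the Pdp1 difference. The narrowest spans were 0.75 for Pdhb and 0.56 for Pdk4.

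Genes of citrate export and its cytosolic partners were all tested, 8 of 8, and 0 passed between CLA and LA, at a median of 0.25, or 0.08 with the replicate block. Slc25a1, the citrate carrier, was at 0.85 (SE 0.61) and Me1, the NADPH-forming malic enzyme, at 0.61 (SE 0.50), while Aco1 was at -0.47 (SE 0.38) and Idh1 at -0.41 (SE 0.33). With the block these 4 were at 0.00, 0.16, -0.02 and 0.12, so Idh1 turned sign. Over LA replicate numbers 3 of 8 passed, beside 50.1% of all genes. Among genes that feed or drain the cycle, 8 of 10 were tested, with 0 passing for CLA and 3 over LA replicate numbers, again beside 50.1%. Pccb, a subunit of propionyl-CoA carboxylase, was at 1.102 (SE 0.52) and Pck2, the mitochondrial phosphoenolpyruvate carboxykinase, at 0.96 (SE 0.68), while Mmut was at -0.52 (SE 0.49) and Pck1 at -0.05 (SE 0.72). With the block Pccb was at 0.11, and the other 3 turned sign, to -0.18, 0.09 and 0.37.

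For the respiratory chain all 12 listed genes were tested and 0 passed between CLA and LA, at a median of 0.24, or -0.02 with the replicate block. Without the block Uqcrc1 of complex III was at 0.77 (SE 0.44), Ndufv1 of complex I at 0.62 (SE 0.39), Uqcrc2 at -0.15 (SE 0.33) and Ndufs1 at -0.33 (SE 0.39), and all 4 turned sign with it, to -0.06, -0.11, 0.09 and 0.20. Over LA replicate numbers 5 of 12 passed, beside 50.1% of all genes, and 10 of 12 had their lowest mean in replicate 2, as 20.9% of all genes did. Among 5 regulators of mitochondrial genes 0 passed for CLA and 2 over LA replicate numbers, beside 50.1% of all genes. These were Esrra, an estrogen-related receptor, with a span of 1.74, and Nrf1, with 1.44. Esrra had LA means of 8.30, 6.57, 7.72 and 6.61 in replicates 1 to 4. From highest to lowest this was replicate 1, 3, 4 and 2, as for Pcx. Other listed genes, Sdhc, Ndufv1, Mpc1 and Me1 among them, had that order too, and it was not counted over all genes.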

How the data were processed

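Total RNA of 10 samples, taken with Trizol and labelled with biotin per the labels, was measured on Affymetrix arrays. The authors deposited a linear intensity for each probe set and array, of which 22.5% lie at or below 0, so a background had been subtracted, and the software, scaling and build are not given in the sources used here. A second table deposited by the authors joins the times and holds a ratio, its log10 value, an error score of the log10 ratio and a p-value per probe set, whose pooling and error model are likewise not given.

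The table has 45101 probe sets. Its 64 array controls did not enter the fits (except where every probe set was fitted on its own, which takes in the 4 Pcx controls) and 34945 with 1 gene symbol were used. Intensities were quantile normalized, raised to a floor of 14.3 (the size of the table's 2nd percentile) and put on the log2 scale, and 11.1% of the values tested lay at the floor. Differences were fitted with limma 3.58.1 in R 4.3.3 (variance trend, two-sided, Benjamini-Hochberg over 10916 genes, called at an adjusted p under 0.05). The fits were also run on simulated data, and how many planted changes they recovered or missed is not given here. Treatment and time were additive for CLA against LA, 4 group means gave the comparisons by time, and a moderated F test compared the replicate numbers of the 8 LA arrays. With each time's mean subtracted, LA arrays of the same replicate number correlated at 0.855, 0.779, 0.503 and 0.553, so the numbers pair the arrays and a fit with the replicate number as a block was added. The number of arrays limits the precision.

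The 9 genes are named whatever their result, other lists by counts and their 2 highest and 2 lowest members, and genes of like pattern by Pearson's r. The genes and lists were chosen with earlier results of these data known. The scaling, floor, filter, probe set rule, variance setting, block and arrays were varied in turn, and the authors' table was set beside them. Mpc2, Plin1, Cfd and Ly6a had no probe set of a single symbol and were not analysed here, and Me3 was too dim to be tested.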

Additional observations from a re-analysis of the deposited data

How the results depend on the processing

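No comparison of CLA with LA, or of LA times, called any of the 9 genes under any alternative run, so the changes of sign below are changes of uncalled estimates, and the cause was not tested. With the replicate block, and in the fit of the 4 replicate 1 arrays, the difference over both times was -0.097 for Idh2, 0.053 for Idh3a, -0.18 for Ogdh, 0.25 for Fh1 and -0.22 for Pcx. The block gave -0.074, -0.53, 0.062 and -0.47 for Idh2, Ogdh, Fh1 and Pcx at 8 h and -0.12 for Idh2 at 12 h, and it changed no call. Median centring gave 0.19, 0.18 and 0.41 for Idh3a, Fh1 and Mdh2 over both times, 0.043 and 0.46 for Fh1 and Mdh2 at 8 h, 0.37 for Mdh2 at 12 h, -0.087, -0.13 and -0.098 for the change of response of Cs, Suclg1 and Mdh2, and -0.021 and -0.080 for LA over time in Suclg1 and Mdh2. The deposited scaling gave -0.025 and -0.11 for Idh2 and Fh1 at 12 h, -0.039, -0.081 and -0.049 for the change of response of Cs, Suclg1 and Mdh2, and 0.052 for LA over time in Idh2. The mean of all probe sets gave -0.067 for Idh3b at 8 h, 0.023 for Mdh2 at 12 h, and 0.032 and 0.040 for LA over time in Idh2 and Idh3b. The authors' deposited table gave -0.019 (log2) for Idh2. With 1 array left out at a time, the difference over both times ran from -0.63 to 0.065 for Idh3a, -0.35 to 0.036 for Fh1 and -0.14 to 0.010 for Mdh2. At 8 h it ran from -0.034 to 0.54 for Idh2, -0.060 to 0.35 for Idh3b, -0.25 to 0.052 for Mdh2 and -0.019 to 0.35 for Pcx. At 12 h it ran from -0.025 to 0.36 for Idh2, -0.012 to 0.20 for Idh3a, -0.076 to 0.15 for Fh1 and -0.14 to 0.080 for Mdh2. The change of response ran from -0.16 to 0.23 for Cs, -0.33 to 0.25 for Idh2, -0.13 to 0.27 for Suclg1 and -0.082 to 0.22 for Mdh2. LA over time ran from -0.077 to 0.31 for Cs, -0.30 to 0.28 for Idh2, -0.27 to 0.13 for Idh3b, -0.78 to 0.043 for Ogdh, -0.15 to 0.25 for Suclg1, -0.073 to 0.31 for Fh1, -0.14 to 0.17 for Mdh2 and -0.53 to 0.0020 for Pcx. Over all genes tested, where limma called 0 for CLA against LA over both times, at 8 h, at 12 h and for the change of response, a floor 2 times as high called 28, 273, 100 and 278, no filter 51, 549, 362 and 740, and the mean of all probe sets 10, 38, 7 and 1. Every probe set fitted on its own called 418, 196 and 323 for the last 3, the authors' p-values after Benjamini-Hochberg 513 over both times, and no filter 1 for LA over time. Leaving out 1 array gave 0 to 23, 0 to 193, 0 to 74 and 0 to 51, the highest without LA 8 h replicate 1 in each. Over LA replicate numbers 6 of the 9 genes and 5472 of all were called. The deposited scaling called 2 of the 9, no filter 1 of the 9 and 2063 of all, and leaving out arrays gave 0 to 9 of the 9 and 0 to 6539 of all, with 0 genes called without both arrays of replicate 1. Dimness limits the Ogdh, Idh2, Idh3a and Idh3b probe sets that lay at the floor, and 2 CLA arrays limit every CLA estimate.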

Other observations

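Preadipocyte and fibroblast genes separated the LA replicate numbers in all 5 members tested, by a test that 50.1% of all genes passed. Postn, which encodes the matrix protein periostin, had the widest span, 4.16 on the log2 scale (adjusted p = 0.00346 by limma's F test), from 7.59 in replicate 1 to 11.74 in replicate 2. Pdgfra, a growth factor receptor of fat cell progenitors, spanned 2.89 (adjusted p = 0.00437), again from replicate 1 to replicate 2. All 5 lay highest in replicate 2, as did 1866 of the 10916 genes tested. In CLA against LA over both times 0 of the 5 passed, with all 5 below 0 at a median of -1.13, and with the replicate block the median was -0.06. None of the 5 mature adipocyte genes passed over LA replicate numbers by limma's F test, although Cidec, a lipid droplet protein, spanned 1.72 (adjusted p = 0.0772).

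The macrophage list had 3 tested genes, of which Csf1r (span 2.64) and Adgre1 (span 2.17) passed over LA replicate numbers, beside 50.1% of all genes, and Cd68 did not. Csf1r was highest in replicate 2 and Adgre1 in replicate 1, so the 2 genes did not move together, and 0 of the 3 passed between CLA and LA. Of the brown adipocyte list, Cidea passed over LA replicate numbers and Ppargc1a did not. Cidea was at the floor on 5 arrays, both arrays of replicates 2 and 3 among them, so its span of 2.25 is set by the floor. Of the muscle list, Ckm alone was tested and did not pass.

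Pck1, the cytosolic phosphoenolpyruvate carboxykinase that draws carbon from the cycle for glycerol synthesis in fat cells, was at the floor on 8 of 10 arrays. It was at 7.21 in LA 8 h replicate 4 and at 4.58 in CLA at 8 h.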
